A study of Homo sapiens with 4 samples.

Results

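The genes described here are 8 genes of histone H3 lysine 9 (H3K9) methylation and heterochromatin, taken by symbol from a list of names that was drawn up with earlier results of these data known. They are the methyltransferase genes SUV39H1, SUV39H2, SETDB1 and EHMT1, the heterochromatin protein 1 (HP1) genes CBX1, CBX3 and CBX5, and the corepressor gene TRIM28. All 8 were found, each once, among the 26364 genes listed for every sample, and all 8 passed the filter on low values, as did 11411 listed genes in all. The samples were RNA-seq libraries of BE(2)C cells, a human neuroblastoma line that carries an amplified MYCN gene, in 2 conditions of 2 samples each. Control cells (Ctrl) carried a siRNA without a target, while a single siRNA against MYCN was given to the knockdown cells (MYCN KD). Both conditions received the same lipid carrier, the labels give the siRNA at 80 nM for both, and RNA was taken on the following day. The methods of the study describe another final siRNA concentration. The comparison asks how the mRNA levels of these genes differed when MYCN, a transcription factor of the MYC family, was reduced for about a day in a single cell line.

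Heterochromatin is the compact and mostly silent part of the genome, and methylation of H3K9 is its best known histone mark. Methyltransferases write the mark, HP1 proteins bind it through their chromodomain and bring further methyltransferase to neighbouring nucleosomes, and demethylases remove it. TRIM28, also called KAP1, is brought to DNA by zinc finger proteins with a KRAB domain and recruits SETDB1 and HP1 there, which is a known route of silencing for retroelements. MYC proteins bind DNA with MAX at the E-box CACGTG and, less strongly, at variants of it such as CACGCG.

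The promoter sequences are shown first because MYCN binds E-boxes near gene starts. Windows from 250 bases before to 50 bases after the start were taken from RefSeq (GRCh38.p14), and 7 of the 8 genes matched. TRIM28 did not. Both motifs were searched on both strands. CACGTG reads the same on both strands, and a match to it cannot overlap a match to CACGCG. In the windows of SETDB1 and CBX5 the canonical motif CACGTG was present, and in that of SUV39H2 the variant CACGCG. Neither was found in the windows of SUV39H1, EHMT1, CBX1 and CBX3. Among all genes with a window, 8.8% held CACGTG and 13.5% held CACGCG in at least 1 window. Each match is printed with 12 bases on either side, 5′ to 3′ on the strand of its gene, with the motif in capitals, and each printed stretch was found unchanged in GRCh37 at the position given. Positions count from the first listed start of the gene, with -1 as the last base before it. In SETDB1 the motif began at -48 (chr1:150898679-150898708, plus strand), in CBX5 at -207 (chr12:54674096-54674125, minus strand) and at -144 (chr12:54674033-54674062, minus strand), and in SUV39H2 at -213 (chr10:14920640-14920669, plus strand).
SETDB1 E-box at -48: ccagtctcttctCACGTGtgcccctggaag
CBX5 E-box at -207: tcttgttgaccgCACGTGtagtaaaatggc
CBX5 E-box at -144: tgcctctgagaaCACGTGaaatggcgggca
SUV39H2 variant E-box at -213: aggatccgggagCACGCGcgctcgccccgc

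**Figure D1:**
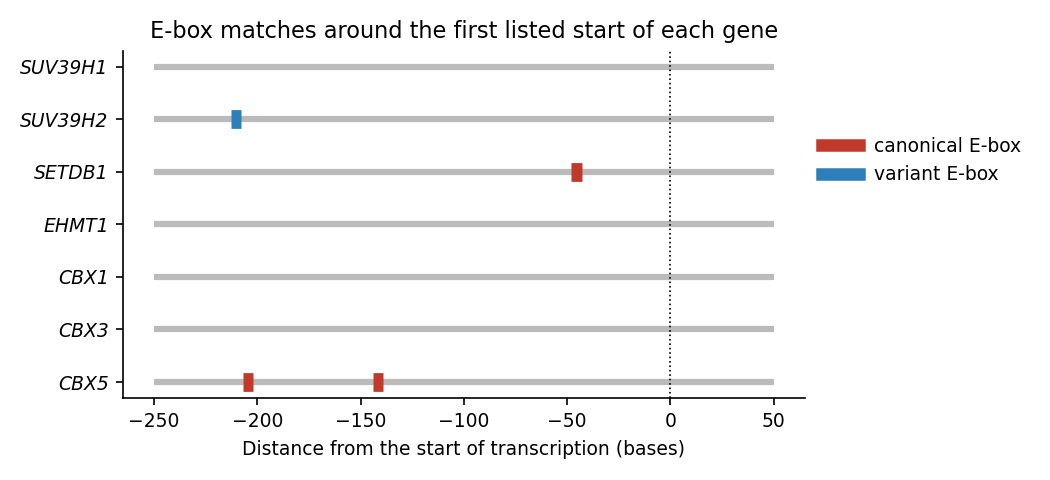
Matches to the canonical E-box and to the variant E-box around the first listed start of the genes with a promoter window, plotted against the distance from the start in bases. SETDB1 has 1 canonical match, CBX5 has 2 and SUV39H2 has 1 variant match, and the other genes have none.

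A pair of further stretches show the DNA next to the starts of the genes on which the results turn most. The first is the 92 bases directly before the GENCODE start of SUV39H2 (chr10:14920727-14920818, plus strand), which hold no annotated exon. Counted from the first listed start used above, they lie at -138 to -47. The second is the 59 bases that separate CBX5 from its neighbour HNRNPA1 (chr12:54673918-54673976, minus strand), written on the strand of CBX5. They lie at -70 to -12 from the first listed start of CBX5. Neither holds either E-box, and no letters are in capitals.
SUV39H2 upstream: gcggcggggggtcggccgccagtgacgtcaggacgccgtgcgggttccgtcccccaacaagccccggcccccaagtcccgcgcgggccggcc
CBX5 to HNRNPA1: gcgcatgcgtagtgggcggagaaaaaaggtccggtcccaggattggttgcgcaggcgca

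Expression is given as RPKM (reads scaled to the length of the gene model and to the total of reads), which the authors calculated from normalized read counts. The whole counts behind the values, called reads here, were recovered from the RPKM steps and amounted to between 29055819 and 34142988 a sample. They follow the authors' adjustment and are not the original counts. The targeted gene checked the labels. MYCN was at 1068 and 1073 RPKM in Ctrl replicates 1 and 2, compared with 720.2 and 718.0 RPKM in MYCN KD replicates 1 and 2. Its log2 fold change on the log2(RPKM + 1) scale, which is used for every fold change here, was -0.57 ± 0.029 (SE, limma adjusted p = 0.00361 with Benjamini-Hochberg adjustment). The knockdown was thus partial, with MYCN KD at 0.672 of the Ctrl level. Replicates with the same number deviated from their condition means in opposite directions, with a correlation of -0.985 across the 11411 tested genes, which are not independent replicates, and all 8 genes did so. The labels do not say whether the samples came from separate cultures, so p-values measure only the spread between these samples. In bulk RNA, fewer cells that express a gene and less RNA per cell cannot be told apart.

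The genes differed widely in level. On the RPKM scale, which is per length of the gene model, the order in Ctrl cells was TRIM28, then CBX3, then CBX5 and CBX1, then EHMT1, SUV39H1, SETDB1 and SUV39H2. The 2 samples of CBX5 lay around those of CBX1 in Ctrl, so these neighbours did not differ beyond their spread there, whereas all the other neighbours in the order were separate in both Ctrl samples. TRIM28 stood at the 95th percentile of the mean level of all tested genes and SUV39H2 at the 40.6th. The place of SUV39H2 depends on the gene model used for the length, since 1670 bases were implied by its RPKM and reads, and its canonical GENCODE transcript has 3059 bases. Together the 8 genes summed to 389 and 388 RPKM in Ctrl but only to 333 and 332 RPKM in MYCN KD.

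**Figure D2:**
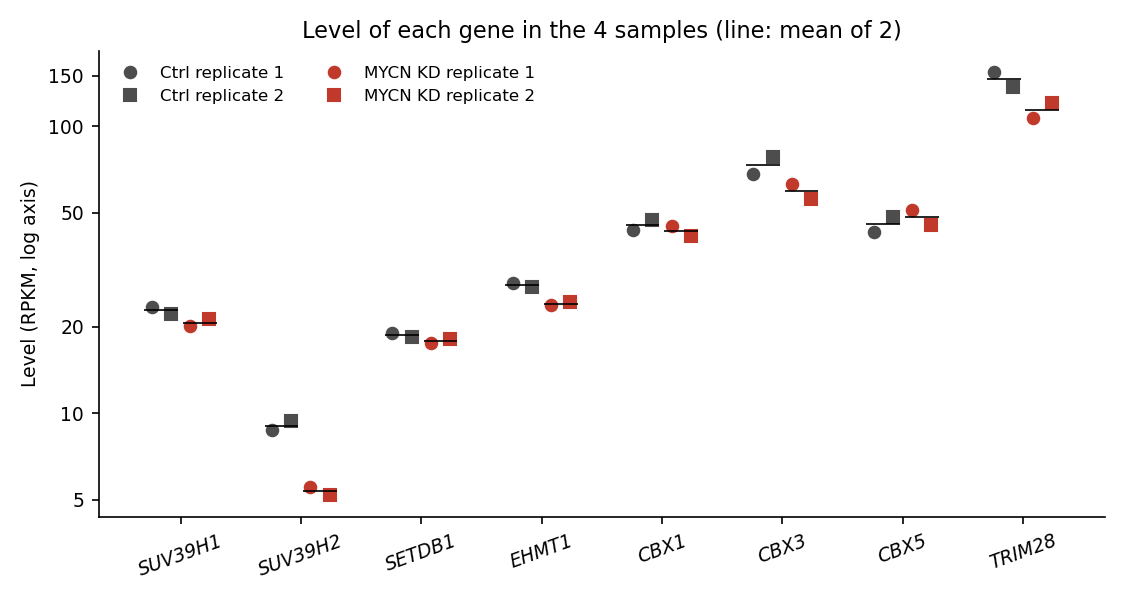
Level of each of the 8 genes in RPKM on a log axis, with 1 point for each of the 2 Ctrl and 2 MYCN KD samples and a line at the mean of each condition. The MYCN KD points of SUV39H2, at 5.54 and 5.17 RPKM, lie farthest below their Ctrl points, at 8.72 and 9.40 RPKM, while the points of CBX1 and CBX5 overlap.

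After MYCN knockdown 2 of the 8 genes, SUV39H2 and EHMT1, were lower at an adjusted p under 0.05 (limma, Benjamini-Hochberg over all tested genes), none was higher and 6 passed in neither direction. Among all tested genes, 22.8% were lower and 25.3% were higher by the same call, so that 2 of 8 is near the background. TRIM28 had an unadjusted limma p of 0.0271 and did not pass after adjustment. In 6 of the 8 genes both MYCN KD samples were below both Ctrl samples, against 35.8% of all tested genes, and in none were both above, against 40.4% of all tested genes. The median log2 fold change was -0.17 over the 8 genes and 0.03 over all tested genes, whose middle quartiles ran from -0.23 to 0.29. The log2 fold change was negative for 7 of the 8 genes, CBX5 being the exception, and for 5377 of the 11411 tested genes.

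**Figure D3:**
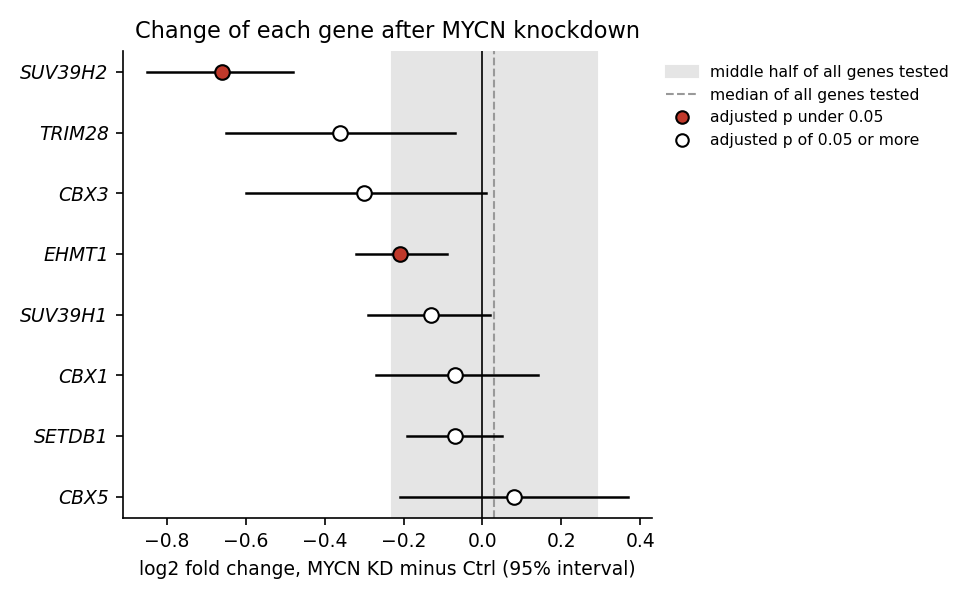
Log2 fold change of each gene (MYCN KD minus Ctrl, log2(RPKM + 1) scale) with its 95% interval, beside the middle quartiles and the median of all tested genes. Filled points, SUV39H2 at -0.66 and EHMT1 at -0.21, passed an adjusted p of 0.05, and the intervals of SUV39H1, SETDB1, CBX1, CBX3 and CBX5 include 0.

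SUV39H2 and SUV39H1 encode closely related enzymes that place the trimethyl mark at pericentric heterochromatin. SUV39H2 (chr10:14920819-14946314 of GRCh37, plus strand, 6 exons in its canonical transcript) fell the most of the 8 genes. Its level was 8.72 and 9.40 RPKM in Ctrl replicates 1 and 2, falling to 5.54 and 5.17 RPKM in MYCN KD replicates 1 and 2. Both MYCN KD samples were below both Ctrl samples, and the gap between conditions was several times the gap within either. The means were 9.06 ± 0.484 and 5.36 ± 0.266 RPKM (SD, n = 2 each), so that MYCN KD stood at 0.591 of Ctrl. The log2 fold change was -0.66 ± 0.062 (SE, 95% interval -0.85 to -0.48, limma adjusted p = 0.00684), and 5.5% of all tested genes had a lower one. The value rested on 497 and 502 reads in Ctrl against 269 and 267 reads in MYCN KD, the fewest of the 8 genes, for which counting alone gives an error of up to 6.1%. SUV39H2 passed in every alternative set at the start that kept all 4 samples, at limma adjusted p of 0.0125 or less. With any 1 sample left out, its log2 fold change lay between -0.71 and -0.61. The window of this gene is the one that held the variant E-box printed above, which lies within the span of the divergent noncoding gene SUV39H2-DT.

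SUV39H1 (chrX:48553945-48567407, plus strand, 6 exons) is the paralog of SUV39H2 and was the more abundant of the pair. It was at 23.5 and 22.2 RPKM in Ctrl against 20.2 and 21.3 RPKM in MYCN KD. The conditions did not overlap, but the gap between the nearest samples, Ctrl replicate 2 and MYCN KD replicate 2, was smaller than the gaps within the conditions. The means were 22.8 ± 0.896 and 20.7 ± 0.807 RPKM (SD, n = 2 each), and the log2 fold change of -0.13 ± 0.053 (SE, 95% interval -0.29 to 0.02) did not pass (limma adjusted p = 0.119). Within a sample the ratio of SUV39H1 to SUV39H2 was 2.69 and 2.36 in Ctrl against 3.64 and 4.12 in MYCN KD. Its log2 was higher by 0.62 in MYCN KD, a factor of 1.53, and between 0.52 and 0.71 with any 1 sample left out. The 4 ratio comparisons made here, this one and 3 among the HP1 genes, each gave p = 0.3333 by a two-sided exact permutation test over samples, also after Benjamini-Hochberg adjustment, which is the smallest p that 2 samples against 2 allow.

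EHMT1, also called GLP, works with its paralog EHMT2 (G9a) and places mono- and dimethyl marks in euchromatin. EHMT1 (chr9:140513444-140764468, plus strand, 27 exons) was at 28.4 and 27.6 RPKM in Ctrl against 23.8 and 24.4 RPKM in MYCN KD. All MYCN KD values were below all Ctrl values by more than the replicates differed. The SDs were 0.546 RPKM in Ctrl and 0.471 RPKM in MYCN KD (n = 2 each) and the ratio of the means was 0.860, with a log2 fold change of -0.21 ± 0.039 (SE, 95% interval -0.32 to -0.09, limma adjusted p = 0.0243). With 1 sample left out, the log2 fold change lay between -0.23 and -0.19. Such a fit leaves 1 sample in a condition, which is assumed to vary like the other condition. Its test therefore cannot show whether a call depends on 1 sample, and only the log2 fold change is given for such fits. EHMT2 was listed at 0.00931, 0.00994, 0.0122 and 0.0114 RPKM in Ctrl replicates 1 and 2 and MYCN KD replicates 1 and 2, from 9, 9, 10 and 10 reads, and did not pass the filter on low values. The gene length implied by these values was 28292 bases, 7.11 times its canonical GENCODE transcript of 3979 bases, so the level of EHMT2 given here is not comparable with that of EHMT1.

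SETDB1 (chr1:150898739-150937220, plus strand, 22 exons) encodes the trimethylating enzyme that TRIM28 recruits. It was at 19.1 and 18.5 RPKM in Ctrl against 17.6 and 18.1 RPKM in MYCN KD. The values did not overlap, yet the span of all 4 samples was narrow. The means were 18.8 ± 0.396 and 17.8 ± 0.371 RPKM (SD, n = 2 each), and the log2 fold change of -0.07 ± 0.041 (SE, 95% interval -0.19 to 0.05) did not pass (limma adjusted p = 0.22). The interval of SETDB1 does not reach the log2 fold change of SUV39H2. MYCN binding was not examined here, and no relation of the E-boxes to the changes of these genes was tested.

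Of the summed RPKM of the 4 methyltransferase genes, which was 79.7 and 77.8 in Ctrl against 67.0 and 69.0 in MYCN KD, SUV39H2 made up 10.9% and 12.1% in Ctrl against 8.27% and 7.49% in MYCN KD. The share of EHMT1 was close to level, at 35.6% and 35.5% in Ctrl against 35.4% in both MYCN KD samples. SUV39H1 took 29.5% and 28.6% in Ctrl compared with 30.1% and 30.9% in MYCN KD, and SETDB1 took 24.0% and 23.8% in Ctrl against 26.2% in both MYCN KD samples. The shares of SUV39H2 were therefore lower and those of SETDB1 and SUV39H1 higher in both MYCN KD samples, and no share was tested.

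TRIM28 (chr19:59055431-59062089, plus strand, 17 exons) was the most abundant of the 8 genes. It was at 154.5 and 136.7 RPKM in Ctrl against 106.6 and 120.2 RPKM in MYCN KD. Both MYCN KD samples were below both Ctrl samples, but the spread within each condition was wide. The means were 145.6 ± 12.6 and 113.4 ± 9.61 RPKM (SD, n = 2 each), a ratio of 0.779, with a log2 fold change of -0.36 ± 0.098 (SE, 95% interval -0.65 to -0.07). The difference missed the threshold after adjustment, at a limma adjusted p of 0.0546. The log2 fold change was -0.27 without Ctrl replicate 1 and -0.45 without Ctrl replicate 2. It was -0.27 without MYCN KD replicate 1 and -0.44 without MYCN KD replicate 2. With all 4 samples the difference passed after quantile normalization, at a limma adjusted p of 0.0357 (-0.29).

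The HP1 genes encode the readers of the mark. HP1α (CBX5) and HP1β (CBX1) are known mainly from heterochromatin, and HP1γ (CBX3) is found in euchromatin as well. CBX3 (chr7:26240782-26253227, plus strand, 6 exons) was the most abundant of the 3, at 68.3 and 77.9 RPKM in Ctrl against 63.1 and 55.7 RPKM in MYCN KD. The conditions did not overlap, while each replicate pair was spread widely. The means were 73.1 ± 6.75 and 59.4 ± 5.25 RPKM (SD, n = 2 each), a ratio of 0.812, and the log2 fold change of -0.30 ± 0.10 (SE, 95% interval -0.60 to 0.01) did not pass (limma adjusted p = 0.0906). The log2 fold change lay between -0.39 and -0.20 with any 1 sample left out.

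CBX1 (chr17:46147414-46178840, minus strand, 5 exons) was at 43.4 and 47.2 RPKM in Ctrl against 44.9 and 41.5 RPKM in MYCN KD. The conditions overlapped, and the log2 fold change was -0.07 ± 0.069 (SE, 95% interval -0.27 to 0.14, limma adjusted p = 0.466). CBX5 (chr12:54624726-54673917, minus strand, 5 exons) was at 42.7 and 48.3 RPKM in Ctrl against 51.0 and 45.3 RPKM in MYCN KD. These conditions overlapped as well, and the log2 fold change was 0.08 ± 0.097 (SE, 95% interval -0.21 to 0.37, limma adjusted p = 0.536). Its sign turned to -0.0082 without Ctrl replicate 1 and to -0.005 without MYCN KD replicate 1. CBX5 was the only one of the 8 genes with a positive log2 fold change. The pair of canonical E-boxes in its window lies within the span of its neighbour HNRNPA1. RefSeq names 10 pseudogenes of CBX3, 5 of CBX1 and 1 of CBX5, and reads shared with such copies make these levels less certain than those of the other genes, for which none is named.

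Between the replicates of a condition, the relation among the HP1 genes within a sample varied less than their levels. CBX3 made up 44.2% and 44.9% of the summed HP1 RPKM in Ctrl against 39.7% and 39.1% in MYCN KD. CBX5 made up 27.7% and 27.9% in Ctrl against 32.1% and 31.8% in MYCN KD, and CBX1 28.1%, 27.2%, 28.2% and 29.1% in Ctrl replicates 1 and 2 and MYCN KD replicates 1 and 2. In both MYCN KD samples CBX3 thus took a lower and CBX5 a higher share than in both Ctrl samples, whereas the replicates of a condition stood within 1 percentage point of each other for these shares. The ratio of CBX5 to CBX3 was 0.625 and 0.621 in Ctrl against 0.809 and 0.814 in MYCN KD, so that its log2 was higher by 0.38 in MYCN KD, a factor of 1.30, with SDs of 0.0071 in Ctrl against 0.0063 in MYCN KD. This difference lay between 0.38 and 0.39 with any 1 sample left out. The ratio of CBX1 to CBX3 was 0.635 and 0.606 in Ctrl against 0.712 and 0.745 in MYCN KD, and the ratio of CBX5 to CBX1 was 0.984 and 1.02 in Ctrl against 1.14 and 1.09 in MYCN KD. All 3 ratios were separate between the conditions, and the value of CBX5 to CBX1 is fixed by the other 2. Of single tested genes, 35.8% had both MYCN KD samples below both Ctrl samples and 40.4% both above. No such share was counted for gene pairs. A ratio within a sample does not depend on a factor shared by all its genes. The counts were adjusted before deposit, and the effect of that step on the ratios was not tested. With 2 samples against 2, the exact permutation p of each ratio, given above with that of the SUV39 pair, could not fall below 0.3333.

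**Figure D4:**
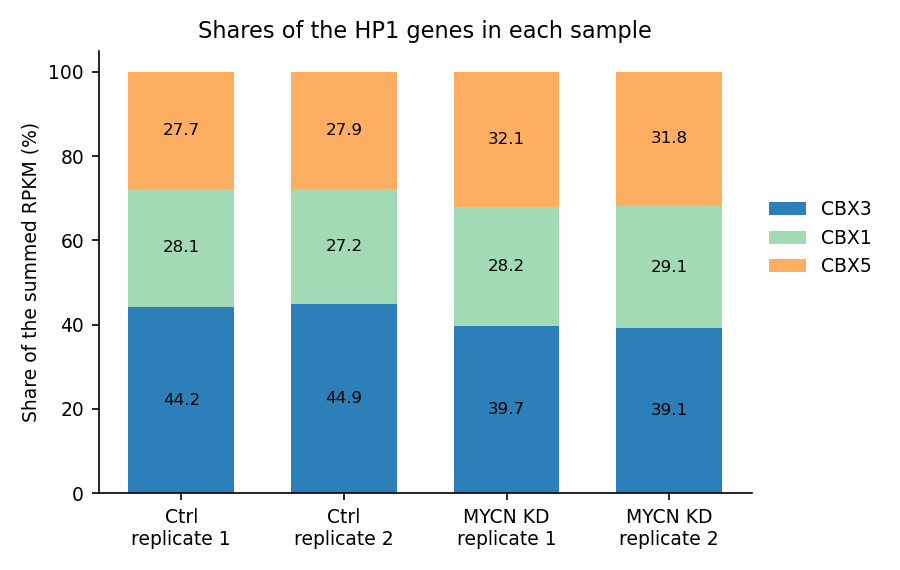
Share of CBX1, CBX3 and CBX5 in their summed RPKM, in percent, as 1 stacked bar for each sample. The CBX3 share is 44.2% and 44.9% in the Ctrl bars and 39.7% and 39.1% in the MYCN KD bars, and the CBX5 share is 27.7% and 27.9% against 32.1% and 31.8%.

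CBX3 and CBX5 each lie head to head with a gene for an abundant RNA-binding protein that packages pre-mRNA. CBX5 and HNRNPA1 start 60 bases apart on opposite strands, the stretch printed above, and their spans do not overlap. HNRNPA1 was at 12.3 and 13.0 RPKM in Ctrl against 9.57 and 9.12 RPKM in MYCN KD, with no overlap, and fell with a log2 fold change of -0.40 ± 0.051 (SE, limma adjusted p = 0.0112). Across this shared start region, HNRNPA1 was therefore lower in both MYCN KD samples while the CBX5 samples of the conditions overlapped. The listed level of HNRNPA1 stood at the 52.5th percentile of all tested genes, from 535 to 811 reads a sample. Its pseudogenes were not counted here, so reads lost to or shared with such copies are not known. CBX3 and HNRNPA2B1 have outermost starts 367 bases apart, and their spans overlap on opposite strands. HNRNPA2B1 was at 286.6 and 318.4 RPKM in Ctrl against 280.2 and 253.4 RPKM in MYCN KD, with a log2 fold change of -0.18 that did not pass (limma adjusted p = 0.163). Its samples ranked as those of CBX3 did, but over 4 samples such a likeness carries almost no information. The sources used here do not say whether reads were counted by strand, so reads from the overlap of CBX3 and HNRNPA2B1 cannot be told apart.

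The wider pathway was read from a list of 28 partner genes, other H3K9 methyltransferases, their cofactors, the HUSH silencing complex, relatives of TRIM28, partners of HP1 and other readers of the mark. Of these, 23 were tested, 7 (30.4%) were lower, 2 (8.70%) were higher and 14 passed in neither direction (limma, Benjamini-Hochberg), beside 22.8% lower and 25.3% higher among all tested genes. The median log2 fold change was 0.04. EHMT2, SETDB2, PRDM16, MECOM and DAXX did not pass the filter on low values. For DAXX, as for EHMT2, the implied gene length was far above that of the canonical transcript (13073 against 2558 bases, 5.11 times). Its listed level is therefore not comparable with those of the other genes.

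The 4 partner genes with the largest falls past the test were CHAF1A, LMNB1, CHAF1B and UHRF1. CHAF1A and CHAF1B encode subunits of chromatin assembly factor 1, which places histones behind the replication fork, and the larger subunit binds HP1. CHAF1A was at 74.1 and 71.5 RPKM in Ctrl against 45.9 and 47.6 RPKM in MYCN KD (log2 fold change -0.63, limma adjusted p = 0.0044), and CHAF1B was at 36.1 and 35.0 RPKM in Ctrl against 24.0 and 24.7 RPKM in MYCN KD (-0.53, limma adjusted p = 0.0051). LMNB1, the gene of lamin B1, was at 54.1 and 58.9 RPKM in Ctrl against 39.8 and 36.7 RPKM in MYCN KD (-0.55, limma adjusted p = 0.0113). UHRF1, which reads H3K9 methylation and brings DNMT1 to newly copied DNA, was at 33.7 and 35.3 RPKM in Ctrl against 25.8 and 24.7 RPKM in MYCN KD (-0.44, limma adjusted p = 0.00841). In these 4 genes, chosen for their falls, no MYCN KD sample reached a Ctrl sample, which also held for 35.8% of all tested genes. They passed in every alternative set at the start that kept all 4 samples, at limma adjusted p of 0.0216 or less.

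PPHLN1, the gene of the HUSH subunit periphilin 1, was at 13.1 and 14.4 RPKM in Ctrl against 11.0 and 10.1 RPKM in MYCN KD (log2 fold change -0.36, limma adjusted p = 0.031). Its log2 fold change lay between -0.42 and -0.29 with any 1 sample left out. The other HUSH genes are named because of their values. MPHOSPH8, whose protein reads the mark for the complex, was at 7.44 and 7.84 RPKM in Ctrl against 6.23 and 5.93 RPKM in MYCN KD (-0.29, limma adjusted p = 0.022), and MORC2, an ATPase that works with it, was at 29.9 and 29.1 RPKM in Ctrl against 25.5 and 26.3 RPKM in MYCN KD (-0.18, limma adjusted p = 0.034). With 1 sample left out, the log2 fold change lay between -0.32 and -0.25 for MPHOSPH8 and between -0.20 and -0.16 for MORC2. The scaffold gene FAM208A (TASOR) went the other way, at 2.88 and 3.56 RPKM in Ctrl against 5.07 and 4.12 RPKM in MYCN KD. It did not pass (0.41, limma adjusted p = 0.0827). Its log2 fold change lay between 0.28 and 0.53 with any 1 sample left out. After each sample was rescaled to the same total, none of the 3 lower HUSH genes passed (limma adjusted p of 0.068 for PPHLN1, 0.0547 for MPHOSPH8 and 0.051 for MORC2).

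The genes that rose were ZNF274 and PRDM2. ZNF274, a zinc finger protein that recruits SETDB1 through TRIM28, was at 7.65 and 7.73 RPKM in Ctrl against 12.8 and 12.6 RPKM in MYCN KD (log2 fold change 0.66, limma adjusted p = 0.00399). It passed in every alternative set at the start that kept all 4 samples, at limma adjusted p of 0.00743 or less. PRDM2 (RIZ), which belongs to the PRDM family of methyltransferases, was at 5.45 and 5.69 RPKM in Ctrl against 6.91 and 6.63 RPKM in MYCN KD (0.24, limma adjusted p = 0.0269). Its log2 fold change lay between 0.22 and 0.27 with any 1 sample left out. None of the 5 methyltransferase cofactors passed in either direction. Over the list, the median log2 fold change lay between 0.01 and 0.06 with any 1 sample left out. After each sample was rescaled to the same total, 4 partner genes were lower, beside 2120 of all 11414 genes tested there.

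**Figure D5:**
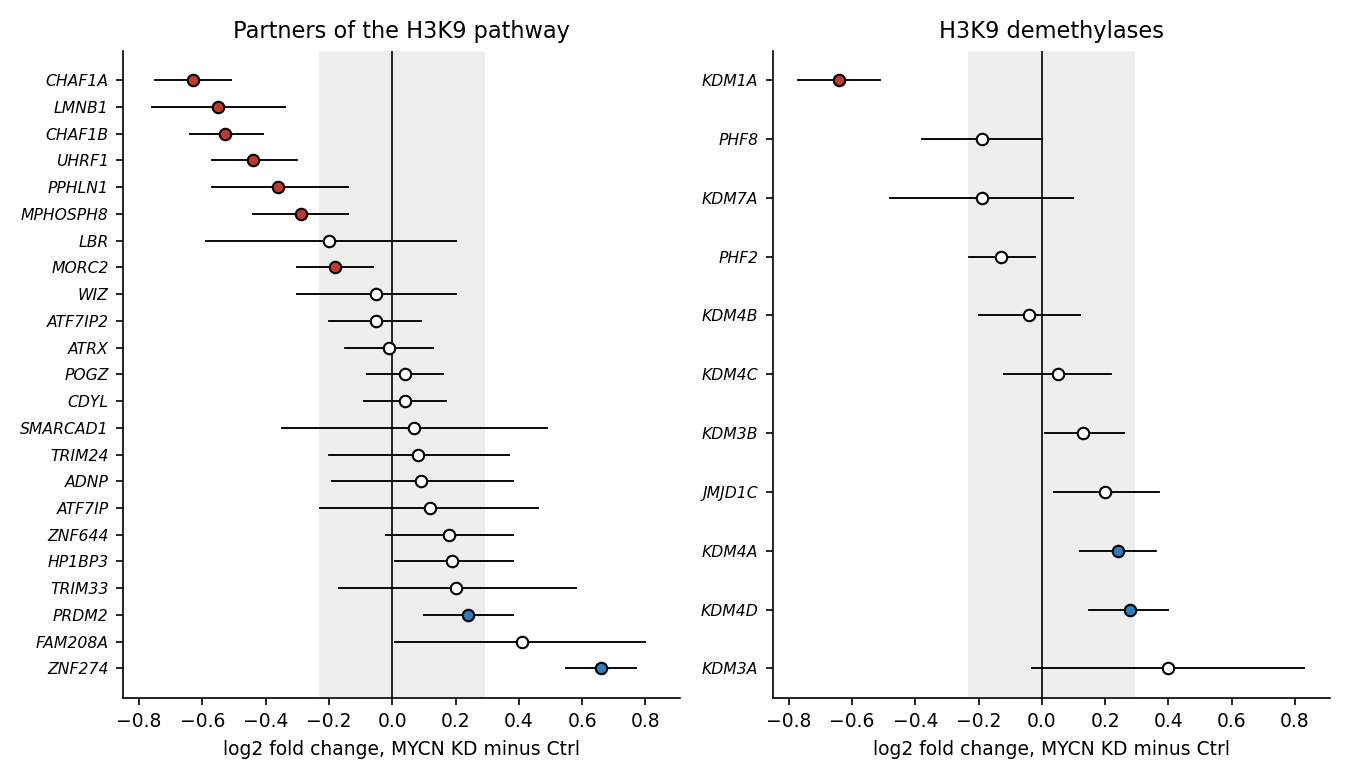
Log2 fold change (MYCN KD minus Ctrl, log2(RPKM + 1) scale) of the tested pathway partners and of the tested H3K9 demethylases, 1 point for each gene. The partners run from -0.63 (CHAF1A) to 0.66 (ZNF274) and the demethylases from -0.64 (KDM1A) to 0.40.

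Of 11 genes for H3K9 demethylases, all tested, 1 (9.09%) was lower and 2 (18.2%) were higher (limma, Benjamini-Hochberg), beside 22.8% and 25.3% of all tested genes, with a median log2 fold change of 0.05 that turned to -0.05 with quantile normalization. KDM1A (LSD1), which removes mono- and dimethyl marks, was at 74.7 and 77.9 RPKM in Ctrl against 49.5 and 47.6 RPKM in MYCN KD (-0.64, limma adjusted p = 0.00452). It passed in every alternative set at the start that kept all 4 samples, at limma adjusted p of 0.00863 or less. KDM4A and KDM4D, of the family that removes the trimethyl mark, were higher, with MYCN KD at 1.21 and 1.38 of the Ctrl level. The log2(RPKM + 1) scale understates the change of KDM4D, whose level was low. KDM4A was at 8.02 and 7.86 RPKM in Ctrl against 9.48 and 9.68 RPKM in MYCN KD (0.24, limma adjusted p = 0.019), and KDM4D was at 1.21 and 1.27 RPKM in Ctrl against 1.76 and 1.67 RPKM in MYCN KD (0.28, limma adjusted p = 0.0157). With 1 sample left out, the log2 fold change lay between 0.23 and 0.26 for KDM4A and between 0.25 and 0.30 for KDM4D. KDM3A, named after its values were seen, was at 2.63 and 3.34 RPKM in Ctrl compared with 4.75 and 3.77 RPKM in MYCN KD. It did not pass with all 4 samples (log2 fold change 0.40, limma adjusted p = 0.103). Its log2 fold change lay between 0.26 and 0.54 with any 1 sample left out.

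Many genes named ZNF with a number encode KRAB zinc finger proteins, the DNA-binding partners of TRIM28. Of 533 listed, 372 were tested, of which 35 (9.41%) were lower and 100 (26.9%) were higher (limma, Benjamini-Hochberg), beside 22.8% and 25.3% of all tested genes, and their median log2 fold change was 0.15. The median lay between 0.10 and 0.17 with any 1 sample left out. It was 0.06 with quantile normalization and 0.02 at a minimum mean of 5 RPKM. The number lower was 20 after each sample was rescaled to the same total, beside 2120 of all 11414 genes tested there. With quantile normalization it was 56, beside 3000 of all 11411 genes tested. In the fit reported here, lower counts thus stood below the background for these genes, and higher counts near it. The many near-identical zinc finger genes share reads, and the list is described by its counts only.

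Most of the listed genes of dividing cells were lower as well. Of 17 genes for DNA replication and mitosis, all tested, 12 (70.6%) were lower and none was higher (limma, Benjamini-Hochberg), beside 22.8% and 25.3% of all tested genes, with a median log2 fold change of -0.45, and their summed level was 1847 and 1917 RPKM in Ctrl against 1384 and 1349 RPKM in MYCN KD. The 5 that did not pass were MCM5 (log2 fold change -0.22), CDK1 (-0.26), TOP2A (-0.16), RRM2 (-0.04) and MKI67 (0.0), which are named because they are the exceptions. The part of these 17 genes in the falls of SUV39H2, EHMT1, CHAF1A, CHAF1B, LMNB1 and UHRF1 was not tested. The labelled cell type was checked with markers. All 8 adrenergic neuroblastoma markers were tested, summing to 1353 and 1251 RPKM in Ctrl against 1988 and 2163 RPKM in MYCN KD, with 2 of 8 lower and 4 of 8 higher beside the same 22.8% and 25.3%. Of 8 mesenchymal markers only 2 passed the filter on low values, their whole list summed to between 5.86 and 6.91 RPKM a sample, and PRRX1 was at 0 in all samples. Of these 2, COL1A1 was higher, at 0.726 and 0.739 RPKM in Ctrl compared with 1.78 and 1.74 RPKM in MYCN KD (log2 fold change 0.67, limma adjusted p = 0.00365). It was below 1 RPKM in both Ctrl samples, so it passed the filter only through its MYCN KD values. The other, SNAI2, went the other way, at 3.76 and 3.78 RPKM in Ctrl against 3.41 and 3.40 RPKM in MYCN KD. SNAI2 did not pass (-0.12, limma adjusted p = 0.0816), and both genes are named after their values were seen.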

How the data were processed

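RNA was measured in 2 Ctrl and 2 MYCN KD samples, grouped by the sample titles. Per the methods and the submitters' processing notes, HISAT2 2.1.0 aligned the reads to hg19, featureCounts assigned them to RefSeq genes, and DESeq2 and RUVSeq (variant not given in the sources used here) were applied to the counts. The RPKM values that the authors deposited derive from these adjusted counts. The replicate spread therefore follows that adjustment, and the original counts were not analysed here. Small RNA genes of known length gave each sample's total of reads, with 92.9% to 94.0% of those genes whole within 0.01 read in the step that set it. Counting errors cover counting only.

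Values were analysed as log2(RPKM + 1), which understates changes of low genes, with limma 3.58.1 in R 4.3.3 (lmFit, eBayes with trend, no block) for the 11411 genes with a mean of at least 1 RPKM, two-sided, adjusted by Benjamini-Hochberg, with 0.05 as the threshold. The list holds 2 repeated symbol rows. Ratios within samples were compared by exact permutation. The fit was tested on simulated data. Positions are from GENCODE release 44 on GRCh37 and promoter windows from RefSeq (GRCh38.p14). Python 3.11.15 was used. Named with values were MYCN, the 8 genes, their head-to-head neighbours, up to 5 called genes in each direction of the partner and demethylase lists, and EHMT2. Further genes (MPHOSPH8, MORC2, FAM208A, KDM3A, COL1A1, SNAI2, exceptions in the dividing-cell list) were named after their values were seen. The genes, lists and tests were chosen with earlier results of these data known. Alternatives were other pseudocounts, filters, scalings, eBayes without trend, a replicate block and each sample left out. After seeing the data, a crossed block and a voom fit of the reads were added.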

Additional observations from a re-analysis of the deposited data

How the results depend on the processing

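The number of the 8 genes called lower lay between 2 and 3 over voom and the alternatives set at the start that kept all 4 samples. None was called higher. Among all genes, 1868 were higher at a minimum mean of 5 RPKM (fewer genes tested), against 2890, and rescaling each sample to the same total gave 2120 lower and 3282 higher, against 3000 and 2883 with quantile normalization. The median log2 fold change of the demethylases turned to -0.08 at the minimum of 5 RPKM and to -0.05 with quantile normalization, where the cause was not tested. At the minimum of 5 RPKM, 21 ZNF genes were lower and 26 higher, beside 2106 lower and 1868 higher of all 7859 genes tested there. How many ZNF genes were tested at that minimum was not counted, so no share is given. With 1 sample left out, the log2 fold change of CBX5 lay between -0.0082 and 0.17. The median of the 8 genes stayed between -0.19 and -0.11.

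The replicate numbers were not taken to pair the samples, because same-numbered samples deviated in opposite directions (correlation -0.985). Whether the adjustment before deposit left this pattern was not tested. With the replicate block, 2 of the 8 genes were lower, SUV39H2 (limma adjusted p = 0.00087) and TRIM28 (0.0262), EHMT1 was not (0.295), and 1851 genes were lower and 2077 higher in all. Partner calls became 4 lower and 1 higher, with PPHLN1, MPHOSPH8, MORC2 and PRDM2 no longer called. KDM4A and KDM4D lost their calls, so no demethylase was called higher, and 13 ZNF genes were lower and 53 higher. The crossed block, chosen after seeing the data, called 7 of the 8 genes lower and 1 higher, and 5262 genes lower and 5910 higher in all.

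With 2 samples a condition and mirrored replicate deviations, replicate error is poorly known. No detection limit was measured.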
